A study of Caenorhabditis elegans with 58 samples.

Results

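The oac genes of Caenorhabditis elegans (named for O-acyltransferase homologue) were followed across every group of the series. A gene was a member when its name in the count tables was oac followed by a number and nothing else, whatever its values. This took in 55 of 45410 counted entries, and all 55 are annotated as protein-coding. The annotated names oac-18, oac-33, oac-47 and oac-60, which are pseudogenes, and oac-37 were not analysed here.

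The members encode predicted membrane proteins of the acyltransferase-3 family, enzymes that move acyl groups from a donor onto hydroxyl groups of lipids, sugars or other small molecules. The nematode has many such genes, and most have no described substrate. Related C. elegans proteins are better known. NRF-6 and NDG-4 were found through mutants whose noses resist fluoxetine and whose yolk reaches the oocytes poorly, RHY-1 limits signalling by the hypoxia factor HIF-1, and BUS-1 shapes the cuticle surface to which a bacterial pathogen sticks. No individual role was assigned to the members named below in the sources used here, so they are described by level, neighbour and chromosome.

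RNA came from whole animals at the mid-L4 larval stage, in 58 libraries of 15 groups. In the outcross experiment, hermaphrodites carrying set-2(zr1208), a substitution in the catalytic pocket of the H3K4 methyltransferase SET-2 held in 1 engineered line, were mated with wild-type males. Their offspring lines that were wild type again (WT-des) or homozygous for set-2(zr1208) (MUT-des) were taken at generations F3 and F5, beside lines from a cross of wild type with wild type (WT-ctrl). These were kept at 20°C, with 25 to 30 animals pooled per library and 4 libraries per group (3 for MUT-des). In the parental experiment, 4 libraries per group held L4 progeny of wild-type mothers at day 1 (F1-1DOA) or day 4 (F1-4DOA) of adulthood at 20°C, animals kept 1 generation at 25°C (F1-25C), animals returned to 20°C for 1 generation after 2 generations at 25°C (F1-back), set-2(zr1208) counterparts of the first 3 (set-2 F1-1DOA, set-2 F1-4DOA and set-2 F1-25C), and cross-progeny of young males with day-1 (1DOA x 1DOA) or day-4 (1DOA x 4DOA) hermaphrodites, with 60 to 75 animals pooled per library. Cross-progeny can include males, and 11 male-enriched genes summed to 4.02 to 5.92 CPM in 1DOA x 1DOA and 5.26 to 5.59 CPM in 1DOA x 4DOA, beside 5.40 to 6.06 CPM in F1-1DOA. In crosses of this study the oyIs14 reporter, GFP driven by a sra-6 promoter, served to tell cross-progeny apart, so some groups may carry it. Parental replicates were separate experiments and outcross replicates separate lines from the same cross, and F5 follows F3 in descent, so those generations are not unrelated samples.

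Library totals ran from 2819460 to 31543107 counts, apart from WT-ctrl F5 replicate 2 with 1271186, which was left out of the fits unless stated. The shallowest library in use was set-2 F1-4DOA replicate 3. Levels are given in CPM, the count relative to the library total, with totals scaled by the TMM method. A member was called where its log2 fold change lay beyond 1 in either direction and the edgeR quasi-likelihood test gave a Benjamini-Hochberg adjusted p below 0.05 over the whole table of tested genes. Values after a gene in parentheses are the log2 fold change with its standard error (SE) and that adjusted p.

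**Figure D1:**
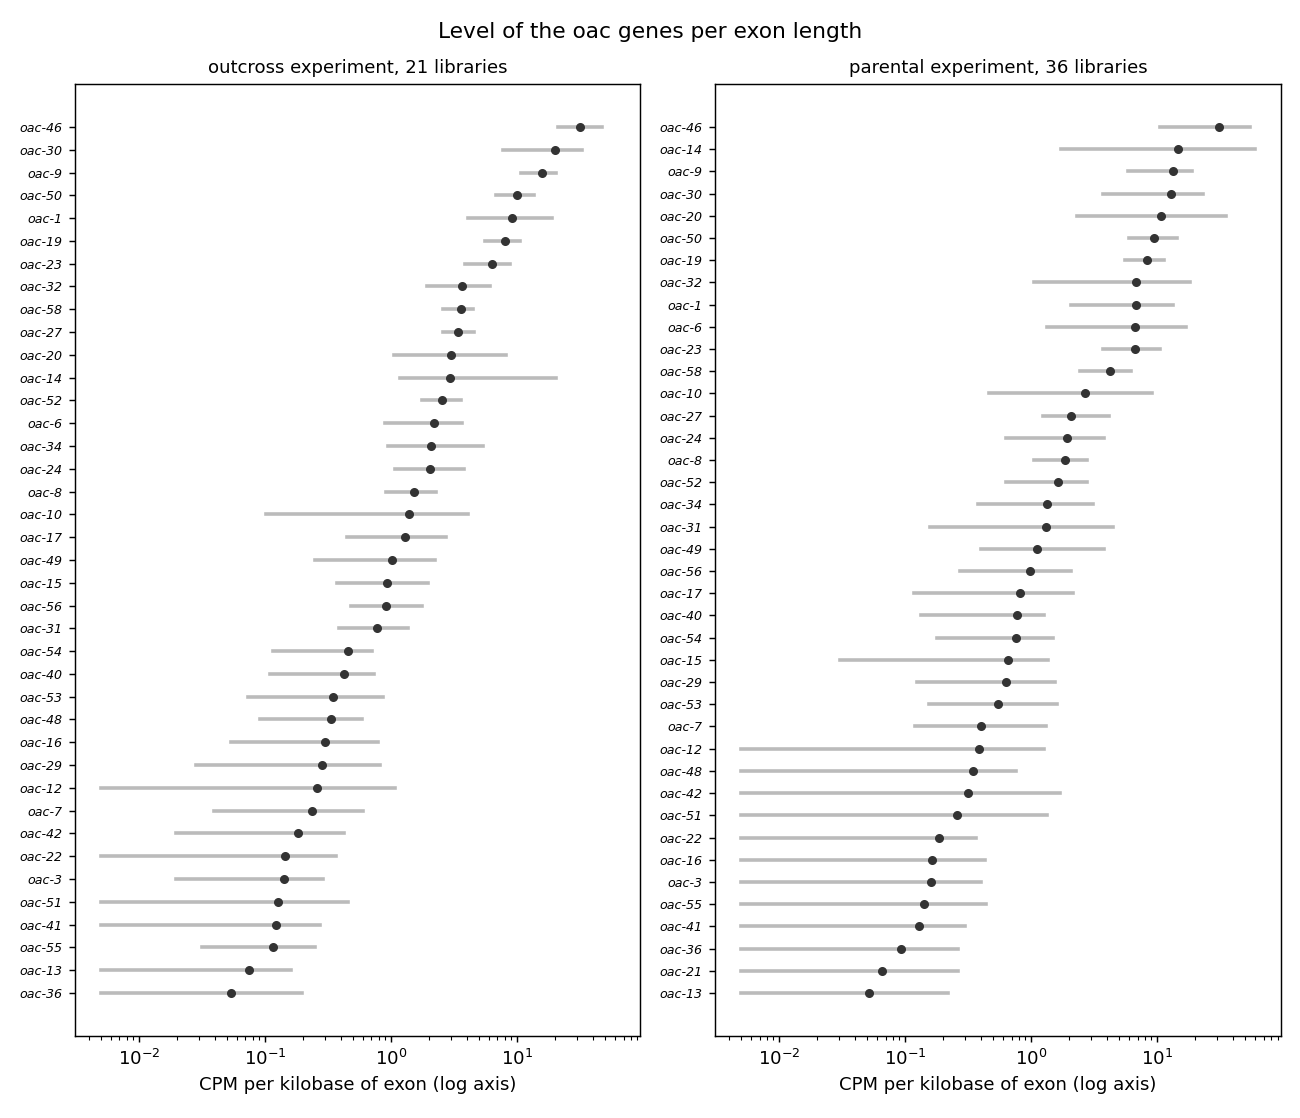
Mean level of each oac gene per kilobase of exon (points) with the lowest to highest library (bars), on a log axis, for the 21 outcross libraries used and the 36 parental libraries; bars that reach the left end include a library at 0, and members with a mean under 0.05 are not drawn. In both experiments oac-46 is at the top, and oac-14 has the widest bar among the abundant members of the parental experiment.

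Per kilobase of exon, oac-46 on chromosome II led in both experiments, with 31.9 ± 7.33 CPM per kilobase (SD, n = 21) in the outcross libraries and 31.0 ± 10.2 CPM per kilobase (SD, n = 36) in the parental libraries. In the outcross libraries oac-30 followed with 20.0 ± 6.54 CPM per kilobase (SD, n = 21) and oac-9 with 15.9 ± 2.66 CPM per kilobase (SD, n = 21). In the parental libraries the next were oac-14, the only member on the X chromosome, with 14.6 ± 16.2 CPM per kilobase (SD, n = 36), and oac-9 on chromosome I with 13.3 ± 2.90 CPM per kilobase (SD, n = 36). The means of oac-14, oac-9 and oac-30 lay within 1 SD of each other in the parental libraries, so their order is not resolved.

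At the other end, 3 members (oac-25, oac-28 and oac-59) had no count in any of the 58 libraries, and 16, those 3 included, stayed under 10 counts in each library. A count of 0 allows up to 3 counts, which is 1.06 CPM in the shallowest and 0.0951 CPM in the deepest library in use, for counting error only. The 0 of oac-59 does not mean that the gene was silent, because a separate transcript-named entry of the same gene held 21.9 ± 2.20 CPM in F1-1DOA and 28.9 ± 3.55 CPM in F1-back. The gene oac-42 likewise had a second entry, at 2.51 ± 1.10 CPM in F1-1DOA, and that of oac-57 was near 0. These entries were counted apart from the members. The rows of oac-42 and oac-57 thus hold part of each gene's reads, and the row of oac-59 holds none. For oac-42 the second entry was the larger, as its own row had 1.08, 0.613, 0.755 and 0.606 CPM in F1-1DOA. Fold changes of oac-42 below are those of its own row unless the second entry is named.

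After the filter on low counts, 36 members were tested in the outcross experiment and 32 in the parental one. The 23 left untested in the parental experiment were oac-2, oac-3, oac-4, oac-5, oac-11, oac-13, oac-16, oac-21, oac-22, oac-25, oac-26, oac-28, oac-35, oac-36, oac-38, oac-39, oac-41, oac-43, oac-44, oac-45, oac-55, oac-57 and oac-59, of which oac-3, oac-16, oac-22 and oac-41 were tested in the outcross. By chromosome, 15 members lie on I, 6 on II, 12 on IV, 21 on V and 1 on X. In the parental experiment 15 of the 21 members on V were tested, against 5 of the 15 on I. In the annotation 19 members sit next to another member, and 8 of those 19 passed the filter, against 24 of the 36 others. The 19 include oac-59, whose own row failed the filter because its reads were held by the separate entry, and oac-57, whose reads were split. Some whole clusters stayed low, such as oac-43, oac-44 and oac-45 or oac-35 and oac-36. Other clusters held members that passed, such as oac-23, oac-32, oac-52 and oac-58. The share of adjacent genes that passed was not computed over all genes, so these counts are not read as a result about the members.

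The summed level of the 55 members is given as a description. In F1-1DOA the sum was 340.3, 358.4, 303.8 and 306.0 CPM, in F1-4DOA 341.9, 352.1, 449.3 and 272.5 CPM and in F1-25C 341.4, 395.8, 308.7 and 305.5 CPM. The highest parental sum was 569.1 CPM in set-2 F1-25C replicate 3, where oac-14 alone held 133 CPM, and the lowest 212.6 CPM in set-2 F1-1DOA replicate 2, where oac-46 was at 25.2 CPM. The changes below are changes of single members.

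Maternal age was addressed by F1-4DOA against F1-1DOA. Progeny of day-4 mothers had higher levels of oac-7, oac-20 and oac-32, all on chromosome V, by about 4- to 5-fold, and no member was called lower. These 3 of 32 tested members compare with 2.38% of all genes called higher and 2.44% called in either direction. The median log2 fold change over the 32 members was -0.13, beside -0.01 over all genes tested.

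The gene oac-7 stood at 0.489, 0.368, 0.566 and 0.390 CPM in the F1-1DOA libraries and at 2.35, 2.14, 2.10 and 2.98 CPM in F1-4DOA. The groups did not overlap, although the counts were small, with a median of 9 counts per parental library. The log2 fold change of oac-7 was 2.39 ± 0.42 (SE), adjusted p = 0.00143. The gene oac-32 stood at 9.97, 10.8, 3.97 and 4.28 CPM in F1-1DOA and 26.7, 25.4, 40.7 and 38.8 CPM in F1-4DOA, again without overlap (2.21 ± 0.39 (SE), adjusted p = 0.00175). The neighbouring oac-31 had 1.56, 2.82, 1.32 and 1.21 CPM in F1-1DOA and 2.65, 1.87, 6.36 and 1.79 CPM in F1-4DOA and was not called. The gene oac-20 stood at 11.044, 13.9, 17.3 and 9.13 CPM in F1-1DOA and 49.2, 48.8, 79.6 and 34.5 CPM in F1-4DOA (2.06 ± 0.48 (SE), adjusted p = 0.0120). Each F1-4DOA library lay above each F1-1DOA library.

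Of the other members, oac-17 and oac-53 had a log2 fold change beyond 1 without passing the test, at -1.12 ± 0.44 (SE), adjusted p = 0.199 and 1.00 ± 0.39 (SE), adjusted p = 0.204. Yolk protein genes (4 of 4) and oocyte or eggshell genes (2 of 11) were called higher in the same comparison, with summed yolk levels of 15154 to 25096 CPM against 1513 to 6126 CPM, and their part in the oac differences was not tested. In whole animals, a change in RNA per cell and a change in the number of cells of a type cannot be told apart. The call of oac-20 was lost without F1-1DOA replicate 1 (adjusted p = 0.0592), F1-1DOA replicate 4 (0.0813) or F1-4DOA replicate 3 (0.0587), while without F1-1DOA replicate 3 the count rose to 5, with oac-1 and oac-30 added.

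**Figure D2:**
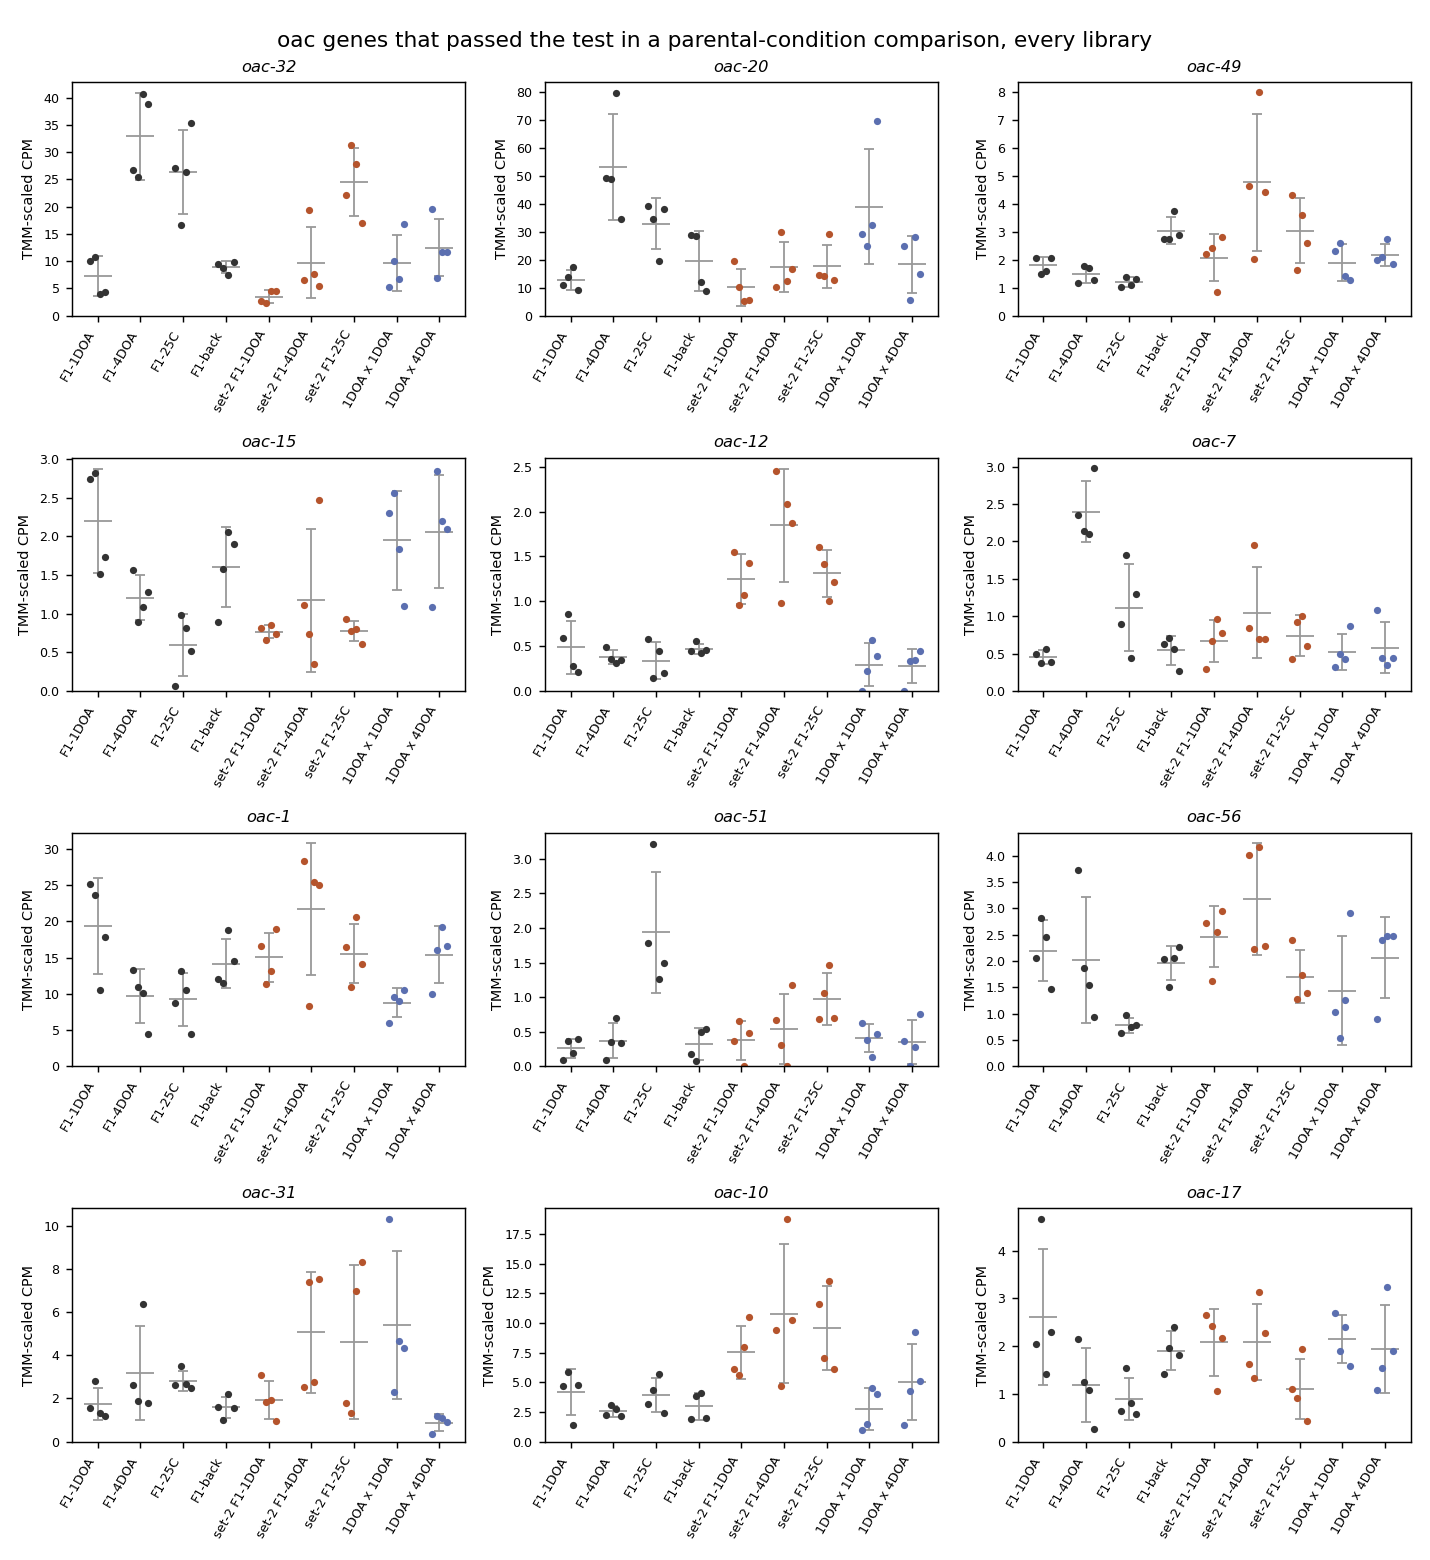
TMM-scaled CPM in every library for the 12 oac genes called in at least 1 parental comparison; points are libraries (black, wild-type self-progeny; rust, set-2(zr1208); blue, cross-progeny), grey bars the mean and SD of 4 libraries. The gene oac-32 is higher in F1-4DOA, F1-25C and set-2 F1-25C than in F1-1DOA, and oac-12 is higher in the 3 set-2 groups than in their wild-type counterparts.

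Temperature was addressed by F1-25C against F1-1DOA. In animals raised at 25°C, oac-32 and oac-51 were higher and oac-1, oac-15, oac-17 and oac-56 were lower. Of 32 tested members, 6 were called, beside 4.99% of all genes. By direction, 2 members were higher, beside 4.06% of genes, and 4 were lower, beside 0.928%. The median log2 fold change over the members was -0.26, with the median of all genes tested near 0.

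The gene oac-32 rose to 27.1, 16.6, 26.3 and 35.3 CPM (1.89 ± 0.39 (SE), adjusted p = 0.00207), above each F1-1DOA library. The gene oac-51 on chromosome IV had 0.0977, 0.368, 0.189 and 0.390 CPM in F1-1DOA and 1.79, 3.21, 1.26 and 1.49 CPM in F1-25C (2.71 ± 0.61 (SE), adjusted p = 0.00448). Here too the groups did not overlap, at a median of 7 counts per parental library. Outside F1-25C the highest library of oac-51 was at 1.47 CPM, in set-2 F1-25C, and most were well below that. The gene may thus have passed the filter on low counts only through F1-25C, where it was high. Its neighbour oac-52 did not follow, with 3.71, 3.56, 3.68 and 3.64 CPM in F1-1DOA and 4.40, 6.15, 4.14 and 3.77 CPM in F1-25C, and was not called.

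Among the lower members, oac-15 had 2.74, 2.82, 1.51 and 1.73 CPM in F1-1DOA and 0.0638, 0.978, 0.813 and 0.520 CPM in F1-25C, without overlap (-1.97 ± 0.45 (SE), adjusted p = 0.00466). The gene oac-56 went from 2.05, 2.82, 2.45 and 1.47 to 0.638, 0.978, 0.739 and 0.779 CPM (-1.48 ± 0.42 (SE), adjusted p = 0.0240), also without overlap. The gene oac-17 had 2.05, 4.66, 1.42 and 2.29 CPM in F1-1DOA and 0.638, 1.54, 0.813 and 0.585 CPM in F1-25C (-1.61 ± 0.46 (SE), adjusted p = 0.0233). Its groups overlapped at their edges. The gene oac-1 had 25.2, 23.7, 10.6 and 17.9 CPM in F1-1DOA and 8.80, 13.1, 10.6 and 4.48 CPM in F1-25C (-1.08 ± 0.34 (SE), adjusted p = 0.0457), and also overlapped.

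The genes oac-7, oac-14, oac-20 and oac-42 lay beyond a log2 fold change of 1 without passing the test. The largest of these values was that of oac-14, at 2.17 ± 0.85 (SE), adjusted p = 0.120. The genes oac-8 and oac-50 passed the adjusted p with changes of less than 2-fold (-0.88 ± 0.25 (SE), adjusted p = 0.0233 and -0.49 ± 0.14 (SE), adjusted p = 0.0287). Oocyte and eggshell markers were called higher for 7 of 11 genes, with summed levels of 1799 to 3612 CPM against 1113 to 1438 CPM in F1-1DOA, and 5 of 36 sperm genes and 1 of 11 tested molting genes were called lower. Their part in the oac differences was not tested. Without F1-1DOA replicate 2 or without F1-25C replicate 1 only oac-15, oac-32 and oac-51 were called (oac-1 adjusted p = 0.112 and 0.0865, oac-17 0.117 and 0.0743, oac-56 0.0696 and 0.0735). The gene oac-1 was also lost without F1-1DOA replicate 1 (0.122), F1-1DOA replicate 4 (0.0516) or F1-25C replicate 4 (0.125), and oac-17 without F1-25C replicate 4 (0.0651).

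The return to 20°C was addressed by F1-back against F1-25C and against F1-1DOA. Against F1-25C, the members that had been high at 25°C, oac-32 and oac-51, were lower, and oac-15, oac-49 and oac-56 were higher. Of 32 tested members, 5 were called, beside 8.23% of all genes, with 3 higher beside 2.18% and 2 lower beside 6.05%. Both comparisons with 25°C use the same F1-25C libraries, so opposite signs in them are not independent observations.

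In F1-back, oac-32 stood at 9.5049, 8.83, 7.43 and 9.79 CPM (-1.57 ± 0.38 (SE), adjusted p = 0.00448) and oac-51 at 0.178, 0.0788, 0.496 and 0.544 CPM (-2.49 ± 0.60 (SE), adjusted p = 0.00405). Each F1-back library lay below each F1-25C library for both genes. The gene oac-15 stood at 0.888, 1.58, 2.05 and 1.90 CPM (1.55 ± 0.46 (SE), adjusted p = 0.0165) and overlapped with F1-25C in 1 library. The gene oac-56 stood at 2.04, 1.4976, 2.05 and 2.27 CPM (1.35 ± 0.42 (SE), adjusted p = 0.0234) and did not overlap with F1-25C. The gene oac-49 on chromosome V had 1.02, 1.40, 1.11 and 1.30 CPM in F1-25C and 2.75, 2.76, 3.75 and 2.90 CPM in F1-back (1.35 ± 0.34 (SE), adjusted p = 0.00616), without overlap. The median log2 fold change was 0.15 over the members and -0.03 over all genes.

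Against F1-1DOA, no member was called with edgeR in F1-back, nor with DESeq2, beside 0.549% of all genes called. At an unadjusted p under 0.05 there were 4 of 32 members, beside 11.6% of all genes. The log2 fold changes of the members lay between -0.58 and 0.74. For oac-32, the F1-back values given above and the F1-1DOA values overlapped. Among the tested members the groups did not overlap for oac-9, oac-50 and oac-58, which were lower in F1-back, nor for oac-49, which was higher, and none of these was called. Overlap was not counted over all genes, so this list is not read as a result about the members. Of 36 sperm genes, 2 were called lower in F1-back than in F1-1DOA. Against F1-25C, oocyte and eggshell markers were called lower for 9 of 11 genes, molting markers higher for 3 of 11 tested, and sperm genes higher for 1 and lower for 2 of 36, and their part was not tested. Against F1-25C, 3 more members (oac-14, oac-17 and oac-42) lay beyond a log2 fold change of 1 without passing the test. Without F1-25C replicate 1, oac-15 (adjusted p = 0.0602) and oac-56 (0.051) were no longer called, nor was oac-15 without F1-back replicate 3 (0.0541).

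The set-2 mutation was addressed by comparing each set-2 group with wild type under the same condition. The gene oac-12, a low member on chromosome V, was higher in set-2(zr1208) in each of the 3 conditions, and oac-10 on chromosome II and oac-49 were higher in 2 of them. The gene oac-15 was lower in set-2 F1-1DOA, and oac-20 and oac-32 were lower in set-2 F1-4DOA. The 3 comparisons use different libraries of 1 mutant line. For oac-12, each set-2 library was at 0.957 CPM or above and each other parental library at 0.858 CPM or below. It may thus have passed the filter on low counts only through the set-2 groups, where it was high. The median log2 fold change over the members was -0.20, 0.27 and 0.24 in F1-1DOA, F1-4DOA and 25°C conditions, beside 0.01, 0.01 and -0.01 over all genes tested.

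In young-mother progeny (set-2 F1-1DOA against F1-1DOA), 2 of 32 members were called, beside 2.72% of genes, 1 higher beside 1.71% and 1 lower beside 1.01%. The gene oac-12 had 0.586, 0.858, 0.283 and 0.216 CPM in F1-1DOA and 1.54, 0.957, 1.07 and 1.43 CPM in set-2 F1-1DOA (1.51 ± 0.45 (SE), adjusted p = 0.0293). The gene oac-15 had 0.809, 0.663, 0.853 and 0.736 CPM in set-2 F1-1DOA (-1.50 ± 0.42 (SE), adjusted p = 0.0225), and for both genes the 2 groups did not overlap. The genes oac-23 and oac-50 passed the adjusted p with changes of less than 2-fold (-0.73 ± 0.21 (SE), adjusted p = 0.0251 and -0.66 ± 0.14 (SE), adjusted p = 0.00536), and 2 (oac-14 and oac-32) lay beyond a log2 fold change of 1 without passing it. Of 36 sperm genes 1 was called higher and 1 lower, and no other marker list had a call. The oac-12 call was lost without F1-1DOA replicate 1 (adjusted p = 0.0778), 3 (0.0661) or 4 (0.103) or set-2 F1-1DOA replicate 3 (0.0614), and that of oac-15 without F1-1DOA replicate 1 (0.0924) or 2 (0.071) or set-2 F1-1DOA replicate 2 (0.0519) or 3 (0.0559).

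In old-mother progeny (set-2 F1-4DOA against F1-4DOA), 6 of 32 members were called, beside 3.91% of genes, with 4 higher beside 1.31% and 2 lower beside 2.59%. The gene oac-12 stood at 0.490, 0.357, 0.310 and 0.341 CPM in F1-4DOA and 2.46, 0.976, 2.08 and 1.87 CPM in set-2 F1-4DOA (2.25 ± 0.46 (SE), adjusted p = 0.00176). The gene oac-10 stood at 2.25, 3.12, 2.72 and 2.13 CPM in F1-4DOA and 9.44, 4.73, 18.8 and 10.2 CPM in set-2 F1-4DOA (1.99 ± 0.48 (SE), adjusted p = 0.00742). Neither gene's groups overlapped. The gene oac-49 stood at 1.18, 1.78, 1.71 and 1.28 CPM in F1-4DOA and 4.63, 2.03, 7.99 and 4.41 CPM in set-2 F1-4DOA (1.55 ± 0.34 (SE), adjusted p = 0.00328), without overlap. The gene oac-1 had 13.2, 10.9, 10.2 and 4.43 CPM in F1-4DOA and 28.4, 8.28, 25.4 and 25.0 CPM in set-2 F1-4DOA (1.16 ± 0.34 (SE), adjusted p = 0.0278). Replicate 2 of set-2 F1-4DOA lay inside the F1-4DOA range for oac-1 and apart from the other 3 libraries.

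The members that were high in wild-type old-mother progeny had lower levels in the mutant. They were picked for high values in the same F1-4DOA libraries, so this is not independent of the comparison with F1-1DOA. The gene oac-32 stood at 6.48, 19.3, 7.64 and 5.49 CPM in set-2 F1-4DOA (-1.73 ± 0.38 (SE), adjusted p = 0.00414) and oac-20 at 10.1, 30.0, 12.5 and 16.6 CPM (-1.59 ± 0.47 (SE), adjusted p = 0.0298), each below its lowest F1-4DOA library. The gene oac-7, at 0.837, 1.95, 0.695 and 0.698 CPM, had a log2 fold change of -1.09 ± 0.37 (SE), adjusted p = 0.0528 and was not called, and oac-14, oac-34 and oac-42 also lay beyond 1 without passing the test. In the same comparison yolk genes (4 of 4), oocyte and eggshell genes (9 of 11) and sperm genes (16 of 36) were called lower in the mutant, with summed yolk levels of 2007 to 8677 CPM, and their part was not tested. Without set-2 F1-4DOA replicate 2 the count rose from 6 to 11, with oac-7, oac-24, oac-34, oac-42 and oac-52 added. The share of all genes called in that fit is not given here, so the rise is not read as a result about the members. The oac-1 call was lost without F1-4DOA replicate 3 (adjusted p = 0.0621) or 4 (0.0689) or set-2 F1-4DOA replicate 1 (0.101), 3 (0.06) or 4 (0.0742), and that of oac-20 without F1-4DOA replicate 3 (0.108) or set-2 F1-4DOA replicate 1 (0.101), 3 (0.0858) or 4 (0.0788).

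At 25°C (set-2 F1-25C against F1-25C), 3 of 32 members were called, all higher, beside 6.49% of genes called and 1.79% called higher. The gene oac-12 stood at 0.574, 0.140, 0.443 and 0.195 CPM in F1-25C and 1.60, 1.42, 1.00 and 1.21 CPM in set-2 F1-25C (1.84 ± 0.46 (SE), adjusted p = 0.00595). The gene oac-49 stood at 4.32, 1.63, 3.61 and 2.60 CPM in set-2 F1-25C (1.35 ± 0.34 (SE), adjusted p = 0.00670), and oac-10 at 3.19, 4.33, 5.69 and 2.40 CPM in F1-25C and 11.6, 7.03, 13.5 and 6.15 CPM in set-2 F1-25C (1.31 ± 0.45 (SE), adjusted p = 0.0415). The groups did not overlap for any of the 3 genes. The gene oac-56 lay beyond 1 without passing the test (1.16 ± 0.42 (SE), adjusted p = 0.0519). Yolk genes (4 of 4) and oocyte or eggshell genes (10 of 11) were called lower, as was 1 of 5 tested muscle genes, and 6 of 36 sperm genes were called higher in the mutant, and their part was not tested. Without F1-25C replicate 3 the count rose to 5, with oac-24 and oac-30 added, and the oac-10 call was lost without F1-25C replicate 1 (adjusted p = 0.0959), 2 (0.0545) or 4 (0.0861) or set-2 F1-25C replicate 1 (0.0951) or 3 (0.0568).

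**Figure D3:**
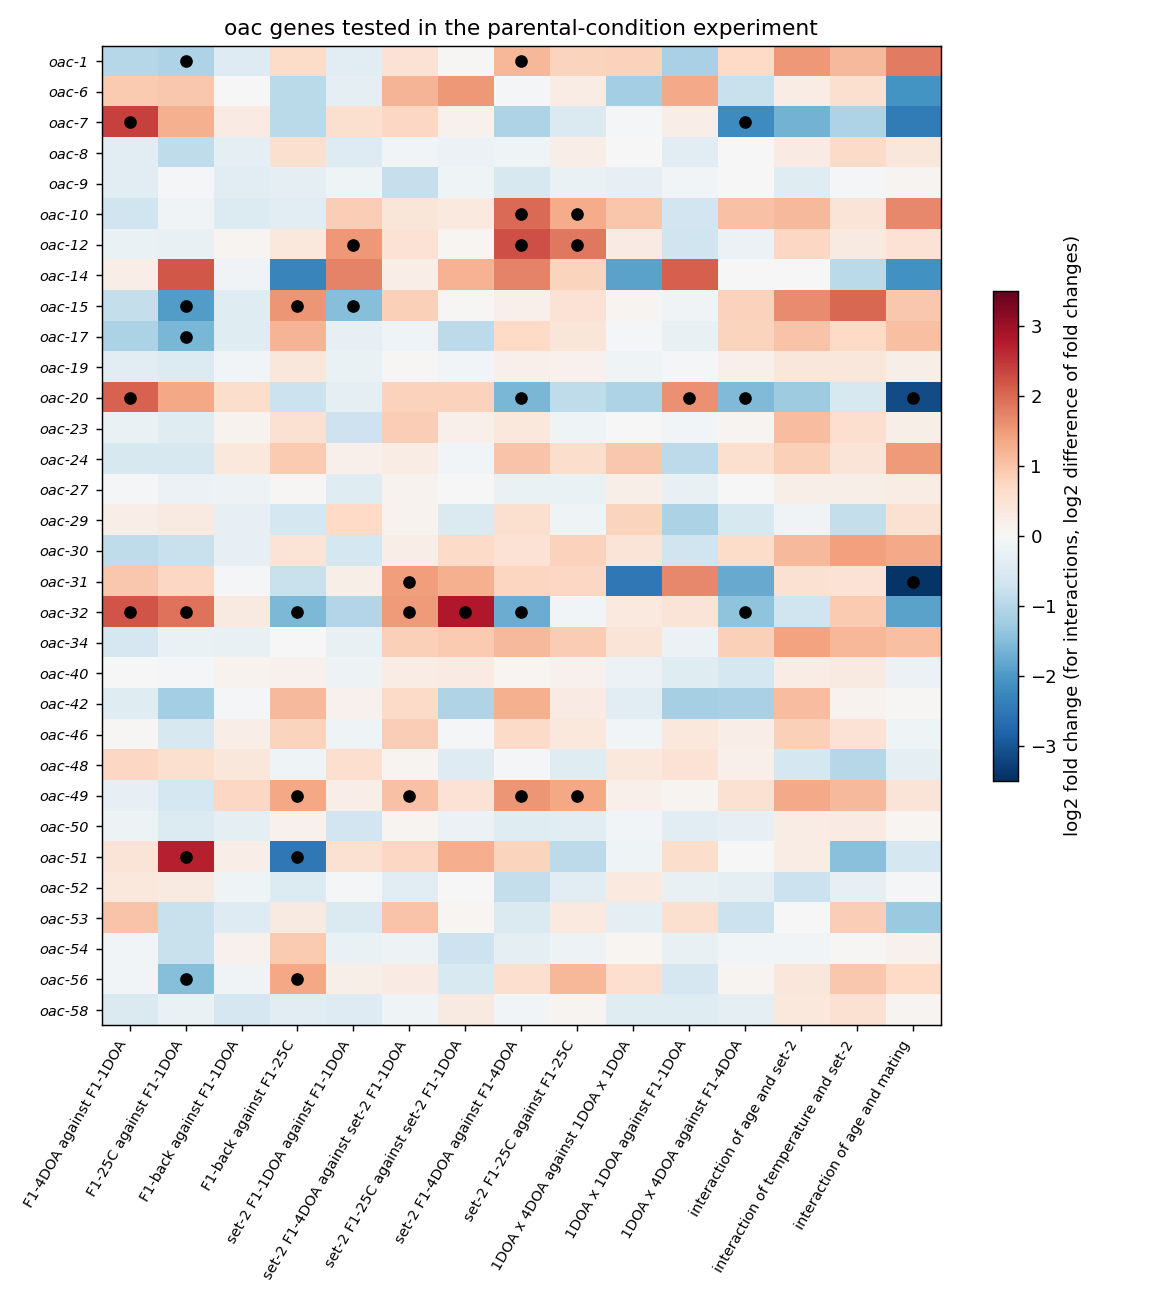
log2 fold change of the 32 tested oac genes (rows) in the 15 parental comparisons (columns), from blue (lower in the first-named group) to red (higher); black dots mark calls. The 35 dots fall on 12 genes, and oac-32 carries 7 of them.

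Within set-2 animals, maternal age and temperature were compared with set-2 F1-1DOA. In set-2 F1-4DOA, oac-31, oac-32 and oac-49 were higher, 3 of 32 members, beside 5.98% of genes called and 1.61% called higher. The gene oac-32 had 2.65, 2.36, 4.48 and 4.50 CPM in set-2 F1-1DOA (1.50 ± 0.40 (SE), adjusted p = 0.00931), below each set-2 F1-4DOA library. The gene oac-31 had 3.09, 1.84, 1.92 and 0.952 CPM in set-2 F1-1DOA and 2.51, 7.38, 2.78 and 7.55 CPM in set-2 F1-4DOA (1.48 ± 0.51 (SE), adjusted p = 0.0377), and oac-49 had 2.21, 2.43, 0.853 and 2.81 CPM in set-2 F1-1DOA (1.03 ± 0.32 (SE), adjusted p = 0.0209). Both overlapped with set-2 F1-4DOA.

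The genes oac-46, oac-23 and oac-9 passed the adjusted p in that comparison with changes of less than 2-fold. The most abundant member, oac-46, had 86.8, 25.2, 61.1 and 75.0 CPM in set-2 F1-1DOA and 125, 89.2, 107 and 131 CPM in set-2 F1-4DOA (0.87 ± 0.29 (SE), adjusted p = 0.0323). The gene oac-9 had 40.8, 34.3, 38.6 and 36.013 CPM in set-2 F1-1DOA and 15.1, 29.8, 24.3 and 16.973 CPM in set-2 F1-4DOA (-0.81 ± 0.18 (SE), adjusted p = 0.00190), and neither gene's groups overlapped. The genes oac-6 and oac-53 lay beyond a log2 fold change of 1 without passing the test. Sperm genes (30 of 36) and oocyte or eggshell genes (7 of 11) were called lower, with summed sperm levels of 1388 to 2877 CPM against 3830.4 to 8527 CPM, while 1 of 11 tested molting genes and 1 of 4 tested male-enriched genes were higher, and their part was not tested. The median log2 fold change of the members was 0.36 beside 0.05 over all genes. Without set-2 F1-4DOA replicate 2 the oac-32 value was 0.83 and not called (adjusted p = 0.104). Only oac-32 was called without set-2 F1-1DOA replicate 3 (oac-31 adjusted p = 0.0765, oac-49 0.0832) or set-2 F1-4DOA replicate 4 (0.156 and 0.0661), and 5 members were called without set-2 F1-1DOA replicate 1. The gene oac-31 was also lost without set-2 F1-1DOA replicate 2 (0.0993) or 4 (0.103) or set-2 F1-4DOA replicate 2 (0.0844), and oac-49 without set-2 F1-1DOA replicate 1 (log2 fold change 0.99) or set-2 F1-4DOA replicate 1 (adjusted p = 0.058) or 3 (0.0683).

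In set-2 F1-25C, oac-32 was the member called, at 22.2, 31.2, 27.8 and 16.985 CPM against 2.65, 2.36, 4.48 and 4.50 CPM in set-2 F1-1DOA (2.81 ± 0.41 (SE), adjusted p = 4.08e-05). This was 1 of 32 members, beside 2.97% of genes called and 1.99% called higher. The gene oac-51, called at 25°C in wild type, had 0.368, 0.663, 0 and 0.476 CPM in set-2 F1-1DOA and 0.678, 1.06, 1.47 and 0.693 CPM in set-2 F1-25C (1.26 ± 0.58 (SE), adjusted p = 0.175). The gene oac-6 had 16.8, 2.95, 4.91 and 5.02 CPM in set-2 F1-1DOA and 9.56, 11.004, 35.3 and 29.2 CPM in set-2 F1-25C and just missed the threshold (1.51 ± 0.49 (SE), adjusted p = 0.0516). The genes oac-14, oac-31 and oac-42 also lay beyond a log2 fold change of 1 without passing it. In the same comparison 2 of 4 yolk genes and 1 of 36 sperm genes were called lower, and their part was not tested. Without set-2 F1-1DOA replicate 1 the count was 3, with oac-6 and oac-14 added, and it was 2 without set-2 F1-25C replicate 1 or 2 (oac-6 added) or 3 (oac-55 added).

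Whether set-2 altered the response was tested with interaction terms. For maternal age, edgeR called 0 of 32 members, beside 1.22% of genes, and DESeq2 called 2 (oac-1 and oac-23). At an unadjusted p under 0.05 were 8 members, beside 20.9% of all genes, and 10 had a log2 difference beyond 1. For temperature it called 0 of 32, beside 2.68% of genes, and DESeq2 called 2 (oac-15 and oac-30), with 6 members at an unadjusted p under 0.05, beside 16.5% of all genes, and 8 beyond a log2 difference of 1. A difference between the genotypes in the response of oac-20, oac-32 or oac-51 was therefore not detected. Oocyte and eggshell genes were called lower in both interactions (9 of 11 each), sperm genes in that of age (14 of 36) and yolk genes in that of temperature (2 of 4). Without set-2 F1-4DOA replicate 2, however, 8 members were called for maternal age (oac-1, oac-7, oac-15, oac-23, oac-30, oac-34, oac-49 and oac-52). Without F1-1DOA replicate 3 or set-2 F1-1DOA replicate 4, 2 were called for maternal age, and 1 without F1-4DOA replicate 3. The shares of all genes called in these fits are not given here, so these counts are not read as results about the members. For temperature the count was 2 without F1-1DOA replicate 3 or F1-25C replicate 3, and 1 without F1-1DOA replicate 4, F1-25C replicate 2, set-2 F1-1DOA replicate 4 or set-2 F1-25C replicate 4. At replicate 2 of set-2 F1-4DOA, oac-1 stood at 8.28 CPM, oac-7 at 1.95 CPM and oac-32 at 19.3 CPM, each apart from the other 3 libraries and towards the level of F1-4DOA.

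Cross-progeny of young males addressed whether mating altered the response to maternal age. Among cross-progeny, old against young hermaphrodites gave no called member with edgeR, beside 0.0653% of genes, with 8 of 32 at an unadjusted p under 0.05 beside 7% of all genes. DESeq2 called 1, oac-31, and so did edgeR without 1DOA x 1DOA replicate 2. The gene oac-31 had 10.3, 2.28, 4.65 and 4.33 CPM in 1DOA x 1DOA and 0.360, 1.20, 1.10 and 0.889 CPM in 1DOA x 4DOA (-2.51 ± 0.57 (SE), adjusted p = 0.0731), and the groups did not overlap. The genes oac-6, oac-14 and oac-20 also had log2 fold changes beyond 1 and below 0, at -1.18 ± 0.49 (SE), adjusted p = 0.633, -1.86 ± 0.84 (SE), adjusted p = 0.660 and -1.09 ± 0.47 (SE), adjusted p = 0.645.

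The members called higher in self-progeny of old mothers were lower in cross-progeny of old mothers. They were picked for high values in F1-4DOA, and both comparisons use those libraries. Opposite signs in them are therefore not independent observations. In 1DOA x 4DOA against F1-4DOA, 3 of 32 members were called, all lower, beside 2.94% of genes called and 1.89% called lower. The gene oac-7 stood at 1.08, 0.438, 0.344 and 0.445 CPM in 1DOA x 4DOA (-2.20 ± 0.42 (SE), adjusted p = 0.00139), oac-32 at 19.6, 6.90, 11.6 and 11.7 CPM (-1.42 ± 0.38 (SE), adjusted p = 0.0213) and oac-20 at 24.9, 5.69, 28.2 and 14.7 CPM (-1.53 ± 0.47 (SE), adjusted p = 0.0499). In each case the highest cross-progeny library lay below the lowest F1-4DOA library. The genes oac-10, oac-31 and oac-42 lay beyond a log2 fold change of 1 without passing the test. Among markers, 1 of 11 oocyte or eggshell genes and 1 of 36 sperm genes were called lower. Summed yolk levels were 4073 to 12383 CPM in 1DOA x 4DOA against 15154 to 25096 CPM in F1-4DOA, without overlap. The part of these markers in the oac differences was not tested. Only oac-7 was called without F1-4DOA replicate 3 (oac-20 adjusted p = 0.174, oac-32 0.0731) or without 1DOA x 4DOA replicate 2 (0.156 and 0.0931), 3 (0.0504 and 0.0685) or 4 (0.132 and 0.0632), and oac-20 was also lost without F1-4DOA replicate 1 (0.0744) or 2 (0.0798) or 1DOA x 4DOA replicate 1 (0.0608).

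Between young mothers, 1DOA x 1DOA against F1-1DOA gave 1 called member of 32, beside 2.33% of genes called and 1.4% called higher. The gene oac-20 stood at 29.2, 24.9, 32.3 and 69.4 CPM in 1DOA x 1DOA (1.61 ± 0.48 (SE), adjusted p = 0.0475), above each F1-1DOA library, with 1 library far above the other 3. This call sat close to the threshold and was lost without F1-1DOA replicate 1 (adjusted p = 0.147), 2 (0.122) or 4 (0.115) or 1DOA x 1DOA replicate 1 (0.0576), 3 (0.068) or 4 (0.179), and the count was 2 without F1-1DOA replicate 3 or 1DOA x 1DOA replicate 2. The second entry of oac-42 was called lower, at 0.782 ± 0.325 CPM (-1.61 ± 0.44 (SE), adjusted p = 0.0334), as was 1 of 36 sperm genes. Beyond a log2 fold change of 1 without a call lay 6 members, oac-6, oac-14 and oac-31 above and oac-1, oac-29 and oac-42 below 0.

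The interaction of maternal age and mating was called for 2 of 32 members, both negative, beside 0.581% of genes called and 0.536% called lower. The log2 difference between the response in cross-progeny and in self-progeny was -3.14 ± 0.67 (SE), adjusted p = 0.0273 for oac-20 and -3.44 ± 0.79 (SE), adjusted p = 0.0341 for oac-31. In self-progeny, oac-20 stood at 11.044, 13.9, 17.3 and 9.13 CPM for young and 49.2, 48.8, 79.6 and 34.5 CPM for old mothers. In cross-progeny its log2 fold change for maternal age was negative but not called, and the young and old groups overlapped. The genes oac-7 and oac-32 had log2 differences of -2.44 ± 0.65 (SE), adjusted p = 0.0676 and -1.87 ± 0.54 (SE), adjusted p = 0.0979. Neither was called by edgeR, and 11 members in all lay beyond a log2 difference of 1 without an edgeR call. Besides oac-20 and oac-31, DESeq2 called oac-7 (log2 difference -2.46, adjusted p = 0.0385), oac-32 (-1.84, adjusted p = 0.0380) and oac-1 (1.82, adjusted p = 0.0179). Over all genes DESeq2 called 246 here, where edgeR called 89. The count was 0 without F1-1DOA replicate 1 (oac-20 adjusted p = 0.0746, oac-31 0.0852), F1-1DOA replicate 4 (0.097 and 0.111), F1-4DOA replicate 3 (0.0857 and 0.144), 1DOA x 1DOA replicate 4 (0.114 and 0.0938) or 1DOA x 4DOA replicate 2 (0.0858 and 0.0948). The oac-31 call was also lost without F1-1DOA replicate 3 (0.0546), 1DOA x 1DOA replicate 1 (0.0628) or 3 (0.0605), or 1DOA x 4DOA replicate 1 (0.0718), 3 (0.0695) or 4 (0.0557).

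The gene oac-14 was the least even of the abundant members and was not called by edgeR in any of the 19 comparisons. DESeq2 called it in F1-back against F1-25C (log2 fold change -2.29, adjusted p = 0.0231). In set-2 F1-25C its libraries stood at 32.3, 28.3, 133 and 133 CPM, and in set-2 F1-1DOA at 107, 19.2, 6.72 and 8.18 CPM. In set-2 F1-4DOA they stood at 9.10, 45.0, 12.9 and 94.6 CPM and in 1DOA x 1DOA at 88.3, 56.8, 14.4 and 19.1 CPM. Libraries of 1 group thus differed by up to an order of magnitude or more. Of the wild-type groups, F1-1DOA had 6.84, 8.22, 18.5 and 8.66 CPM, F1-4DOA 7.06, 8.39, 29.7 and 4.43 CPM and F1-back 12.3, 7.88, 14.1 and 3.90 CPM. Libraries of set-2 F1-1DOA and set-2 F1-4DOA overlapped with these groups. The wild-type groups F1-25C and 1DOA x 1DOA reached higher levels, so the levels did not divide by genotype. F1-25C, at 55.7, 69.1, 36.6 and 28.5 CPM, lay above F1-1DOA without overlap and still missed the threshold, and 1DOA x 4DOA had 17.5, 18.2, 10.9 and 4.07 CPM.

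The genes oac-31 and oac-6, picked out after their values were seen, shared high libraries with oac-14 in some groups and not in others. In set-2 F1-25C, replicates 3 and 4 were the high libraries of oac-14, and they were also the high libraries of oac-31, at 1.79, 1.35, 6.96 and 8.32 CPM, and of oac-6. In set-2 F1-4DOA, replicates 2 and 4 were the high ones for oac-14, for oac-31 and for oac-6, the last at 7.43, 26.6, 7.30 and 23.5 CPM. In 1DOA x 1DOA replicate 1 was the highest for all 3, with oac-6 at 37.3, 20.5, 11.6 and 22.6 CPM. In replicate 2 of that group, however, oac-14 was at 56.8 CPM and oac-31 at 2.28 CPM, its lowest there. Likewise in F1-1DOA replicate 3, the high library of oac-14, oac-31 was at 1.32 CPM and oac-6 at 9.25 CPM, inside their ranges in that group. The 3 genes lie on 2 chromosomes, oac-14 on X and the others on V.

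**Figure D4:**
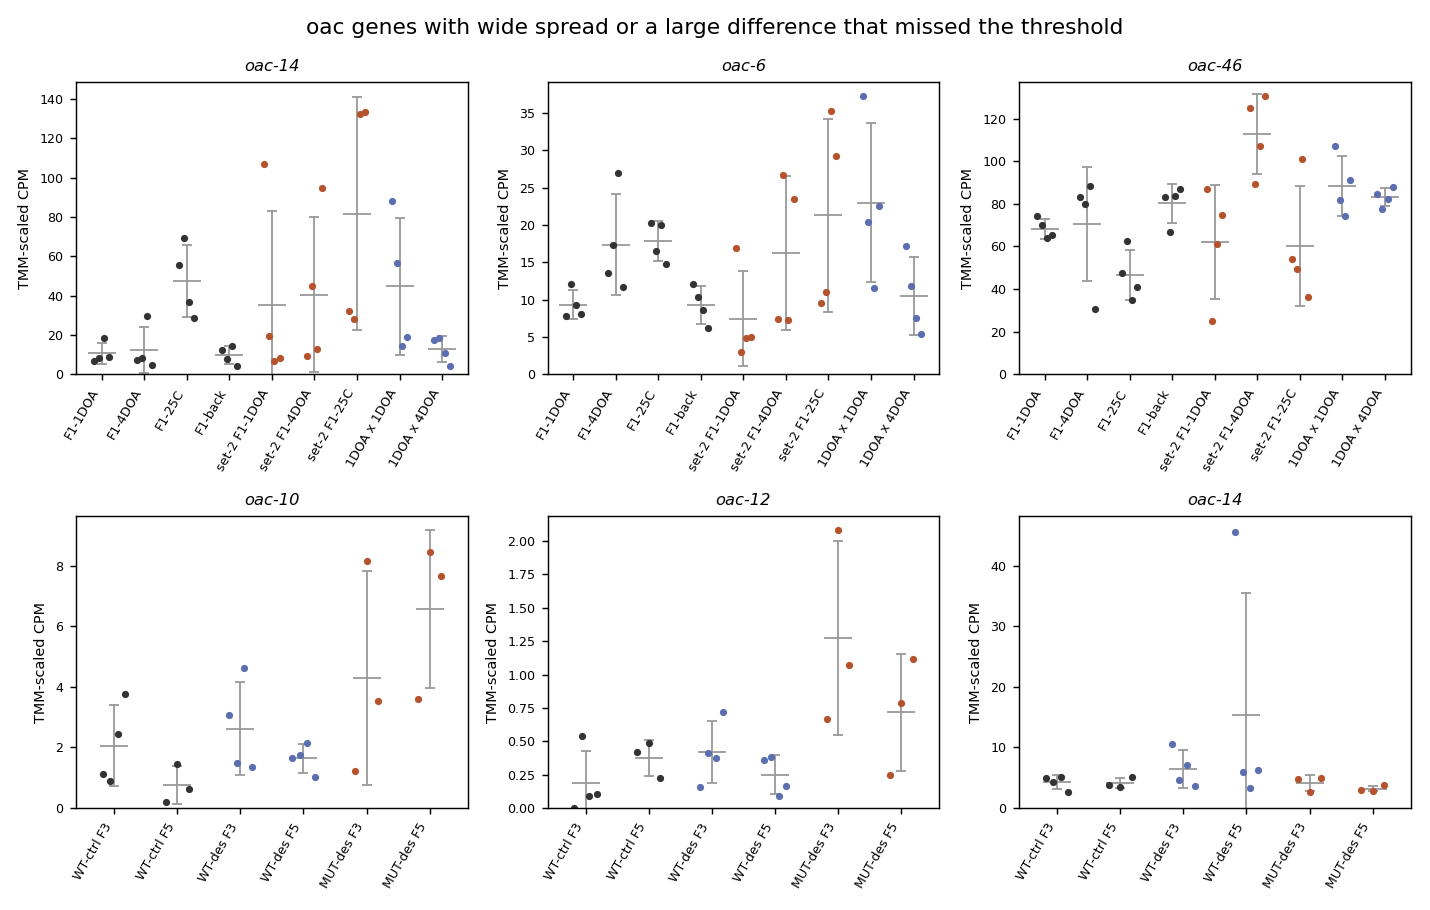
TMM-scaled CPM per library (points) with mean and SD (grey) for oac-14, oac-6 and oac-46 in the 9 parental groups and for oac-10, oac-12 and oac-14 in the 6 outcross groups; black, wild type or WT-ctrl; rust, set-2(zr1208) or MUT-des; blue, cross-progeny or WT-des. Libraries of 1 group differ widely for oac-14, and oac-10 and oac-12 tend to be higher in MUT-des, with overlap.

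The abundant oac-46 and oac-9 had a smaller SD relative to their mean than oac-14. In wild-type self-progeny oac-46 had 74.3, 69.9, 64.009 and 65.3 CPM in F1-1DOA, 83.2, 79.9, 88.5 and 30.4 CPM in F1-4DOA, 47.6, 62.7, 34.9 and 41.1 CPM in F1-25C and 83.2, 66.8, 83.7 and 87.1 CPM in F1-back. Its 25°C libraries were the lowest of these apart from F1-4DOA replicate 4, and no wild-type comparison called it. In cross-progeny it had 107, 81.7, 74.3 and 91.3 CPM in 1DOA x 1DOA and 84.7, 77.6, 82.3 and 87.8 CPM in 1DOA x 4DOA, and in set-2 F1-25C 54.1, 49.2, 101 and 36.1 CPM. The gene oac-9 had 34.4, 41.9, 48.2 and 41.5 CPM in F1-1DOA, 23.8, 28.6, 33.2 and 41.6 CPM in F1-4DOA, 36.3, 39.7, 37.5 and 43.9 CPM in F1-25C and 33.0, 29.6, 31.4 and 32.5 CPM in F1-back. Of its other groups, 1DOA x 1DOA with 33.7, 44.4, 33.6 and 44.3 CPM, 1DOA x 4DOA with 33.2, 38.2, 29.9 and 26.2 CPM and set-2 F1-25C with 32.4, 31.4, 42.2 and 28.9 CPM lay within that range, as did set-2 F1-1DOA, while set-2 F1-4DOA had libraries below it. The gene oac-30 on chromosome II had 42.7, 46.8, 19.3 and 28.9 CPM in F1-1DOA and 23.7, 23.9, 19.013 and 7.49 CPM in F1-4DOA. In F1-25C it had 17.2, 25.3, 26.2 and 12.2 CPM and in F1-back 21.9, 26.6, 34.8 and 28.1 CPM, with overlap between these groups.

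In the outcross experiment the question was whether expression differed in mutant descendants, or in wild-type descendants of mutant ancestors. No member was called by edgeR in any of the 4 comparisons. In MUT-des against WT-ctrl, 0 of 36 were called, beside 0.176% of genes, with 6 at an unadjusted p under 0.05 beside 7.08% of all genes. In WT-des against WT-ctrl it was 0 beside 0.0126%, with 3 unadjusted beside 2.51%, and in MUT-des against WT-des 0 beside 0.12%, with 10 unadjusted beside 7.19%. DESeq2 called oac-10 in MUT-des against WT-ctrl and none in the other 2.

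Beyond a log2 fold change of 1 in MUT-des against WT-ctrl lay oac-10, oac-12 and oac-51, all above 0 and none called. The gene oac-10 had 1.13, 0.884, 2.43 and 3.77 CPM in WT-ctrl F3 and 0.211, 1.45 and 0.612 CPM in WT-ctrl F5, and 1.21, 8.15 and 3.55 CPM in MUT-des F3 and 3.59, 8.45 and 7.67 CPM in MUT-des F5 (2.06 ± 0.47 (SE), adjusted p = 0.0722). The WT-des libraries had 3.06, 1.47, 4.61 and 1.35 CPM at F3 and 1.65, 1.73, 2.15 and 1.02 CPM at F5. MUT-des F3 replicates 1 and 3 and MUT-des F5 replicate 1 lay within the range of the WT-ctrl libraries. Without MUT-des F3 replicate 1 edgeR called oac-10. The gene oac-12 had 0, 0.540, 0.0936 and 0.108 CPM in WT-ctrl F3 and 0.423, 0.484 and 0.223 CPM in WT-ctrl F5, and 0.670, 2.08 and 1.07 CPM in MUT-des F3 and 0.248, 0.786 and 1.11 CPM in MUT-des F5 (1.80 ± 0.51 (SE), adjusted p = 0.217), with overlap. In WT-des, oac-12 had 0.159, 0.409, 0.377 and 0.723 CPM at F3 and 0.356, 0.386, 0.0876 and 0.163 CPM at F5.

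The gene oac-51 had 0.119, 0.246, 0.140 and 0.216 CPM in WT-ctrl F3 and 0, 0 and 0.0557 in WT-ctrl F5, and 0.0794, 0.0818, 1.09 and 1.04 in WT-des F3 and 0.401, 0.0643, 1.09 and 0.122 in WT-des F5, at 2.86 ± 0.85 (SE), adjusted p = 0.993. In MUT-des it had 0.167, 0.492 and 0.373 CPM at F3 and 0.206, 0.354 and 0.0428 at F5 (1.95 ± 0.97 (SE), adjusted p = 0.723 against WT-ctrl). Most of these levels rest on few counts, and WT-des and WT-ctrl overlapped at F3 and lay next to each other without overlap at F5. In WT-des against WT-ctrl, oac-14 was at 1.24 ± 0.45 (SE), adjusted p = 0.993. In MUT-des against WT-des, 5 members lay beyond 1, oac-10 and oac-12 among them, and oac-14 was at -1.44 ± 0.48 (SE), adjusted p = 0.378, oac-16 at -1.11 ± 0.48 (SE), adjusted p = 0.610 and oac-42 at 1.48 ± 0.40 (SE), adjusted p = 0.204.

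F5 against F3 over the 3 lines of descent gave 0 of 36 members called by edgeR, beside 2.11% of genes, with 11 at an unadjusted p under 0.05 beside 26.5% of all genes, and 1 called by DESeq2 (oac-7). The genes oac-7, oac-22 and oac-51 lay beyond a log2 fold change of 1, all below 0. The gene oac-30 passed the adjusted p at less than 2-fold (0.66 ± 0.17 (SE), adjusted p = 0.0212). It had 24.4, 29.6, 32.6 and 44.5 CPM in WT-ctrl F3 and 49.4, 66.3 and 43.2 in WT-ctrl F5, 35.7, 20.0, 38.1 and 26.1 in WT-des F3 and 43.7, 49.7, 39.8 and 53.8 in WT-des F5, and 33.9, 49.4 and 15.8 in MUT-des F3 and 40.4, 61.5 and 54.3 in MUT-des F5. The WT-des libraries of F5 all lay above those of F3, while the other 2 pairs of groups overlapped. With WT-ctrl F3 replicate 3 left out, oac-7 was called, as it was with WT-des F5 replicate 2 left out, and leaving out MUT-des F3 replicate 1 gave oac-7 and oac-22. In that comparison 1 of 4 yolk genes was called lower. For oac-14, 1 library of WT-des F5 stood apart (45.7, 5.91, 3.33 and 6.24 CPM).

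Neither oac-46 nor oac-9 was called in the outcross comparisons. The gene oac-46 had 75.5, 84.1, 50.8 and 85.8 CPM in WT-ctrl F3, 76.2, 54.9, 57.2 and 77.5 in WT-des F3 and 88.8, 103 and 78.7 in MUT-des F3, and at F5 57.8, 91.4 and 103.62, 62.1, 68.6, 58.4 and 77.5 and 86.1, 59.6 and 115 in the same order of groups. The gene oac-9 had 51.1, 41.2, 37.9 and 39.2 CPM in WT-ctrl F3, 43.1, 36.6, 43.1 and 50.1 in WT-des F3 and 44.2, 27.4 and 32.8 in MUT-des F3, and at F5 40.9, 34.5 and 30.3, 49.8, 35.1, 43.8 and 51.9 and 46.2, 37.5 and 37.8. For oac-46, WT-des F3 lay below MUT-des F3, and the other groups overlapped, as did those of oac-9.

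Over the 15 parental comparisons, 12 of the 32 tested members were called at least once, in 35 pairs of member and comparison, which is 37.5% of the tested members beside 22.9% of all genes tested. Of the 12, 8 lie on chromosome V, where 15 members were tested (oac-1, oac-7, oac-12, oac-15, oac-20, oac-31, oac-32 and oac-49), and the others are oac-51 and oac-56 on IV, oac-10 on II and oac-17 on I. The share of all tested genes called was not computed by chromosome, so the number on V is not read as a result about the members. The 20 tested members never called by edgeR were oac-6, oac-8, oac-9, oac-14, oac-19, oac-23, oac-24, oac-27, oac-29, oac-30, oac-34, oac-40, oac-42, oac-46, oac-48, oac-50, oac-52, oac-53, oac-54 and oac-58. Of these, DESeq2 called oac-6, oac-14, oac-23, oac-24, oac-30 and oac-34 in a parental comparison. Comparisons that share a group share its libraries, so the 35 calls are not independent of each other.

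Related genes outside the naming rule were read in the same fits. The gene rhy-1, a brake on HIF-1, was lower in F1-25C than in F1-1DOA (-1.07 ± 0.31 (SE), adjusted p = 0.0261), at 14.7 ± 1.06 CPM against 30.8 ± 7.99 CPM. It was higher in F1-back than in F1-25C (1.07 ± 0.31 (SE), adjusted p = 0.0142) and lower in 1DOA x 1DOA than in F1-1DOA (-1.13 ± 0.31 (SE), adjusted p = 0.0332). The genes nrf-6, ndg-4 and bus-1 were called in none of the 19 comparisons. The gene nrf-6 had 209.6 ± 30.6 CPM in F1-1DOA and 345 ± 31.9 CPM in F1-4DOA, ndg-4 98.8 ± 9.32 and 150.0 ± 30.6 CPM, and bus-1 1.90 ± 1.24 and 3.92 ± 2.95 CPM.

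Of 8 other genes for the cuticle surface, 6 of them tested, bus-8 was called higher in F1-back than in F1-25C (1.27 ± 0.41 (SE), adjusted p = 0.0279) and bus-4 in the interaction of temperature and set-2 (1.36 ± 0.31 (SE), adjusted p = 0.0110). Of 6 genes of the hypoxia pathway, hif-1 was called higher in set-2 F1-4DOA than in set-2 F1-1DOA (1.31 ± 0.41 (SE), adjusted p = 0.0230) and cysl-2 higher in set-2 F1-4DOA than in F1-4DOA (1.13 ± 0.35 (SE), adjusted p = 0.0350). Among other acyltransferase families, mboa-5, of the membrane-bound O-acyltransferases, was higher in set-2 F1-4DOA than in set-2 F1-1DOA (1.37 ± 0.37 (SE), adjusted p = 0.0104) and lower in set-2 F1-25C than in F1-25C (-1.20 ± 0.41 (SE), adjusted p = 0.0408). No acl, dhhc or diacylglycerol acyltransferase gene was called in any of the 19 comparisons.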

How the data were processed

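RNA-seq counts of 58 whole-animal libraries were used, in the 15 groups that the labels give. Per the study's methods, RNA was isolated with a PicoPure kit, libraries were made with the TruSeq RNA v2 kit, which does not mark strand, and reads from a NextSeq were trimmed with Trimmomatic, aligned with RNA STAR and counted with htseq-count against WS220 (ce10). The authors deposited whole-number counts per entry, without normalization. Without strand, reads of overlapping genes on opposite strands cannot be told apart, and reads shared between similar oac genes were not assessed. Gene names, chromosomes, neighbours and exon lengths came from an annotation of another build (WBcel235), so no coordinates are given.

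Within each experiment the counts were filtered with filterByExpr (15872 genes kept in the outcross and 15306 in the parental experiment), scaled by TMM and fitted with edgeR 4.0.16 (glmQLFit with robust dispersion and glmQLFTest; limma 3.58.1, statmod 1.5.0, R 4.3.3) over all groups of the experiment. All p-values were adjusted by Benjamini-Hochberg over the genes tested. The fits were repeated with DESeq2 1.42.0, with RLE factors, with no filter, with no fold threshold, with a replicate block, and without 1 library at a time. The fitting code was tested on simulated data. Tables and plots were made with Python 3.11.15 and matplotlib 3.10.9. Levels per length were CPM divided by exon length in kilobases. WT-ctrl F5 replicate 2 was left out for its depth of 1271186 counts. Members were chosen by name alone. Values in every library were given for up to 6 called members per comparison, by smallest adjusted p, and for the 3 members highest per length, and members with a log2 fold change beyond 1 that missed the threshold were counted or named. The members, lists and tests were chosen with earlier results of these data known. The counts of the lowest members carry large counting error, and floors of 3 counts cover counting error only.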

Additional observations from a re-analysis of the deposited data

Results flagged for a closer look

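Over 15 members and groups of 4 libraries, 180 sets of values were examined for a single library far from the others of its group, and 15 such libraries stood out. The critical value used is one that chance passes in about 1 in 20 sets of independent, normally spread values, and members measured in the same libraries are not independent. Replicate 2 of set-2 F1-4DOA stood apart for 3 members, with oac-1 at 8.28 CPM (others 25.0 to 28.4), oac-7 at 1.95 CPM (others 0.695 to 0.837) and oac-32 at 19.3 CPM (others 5.49 to 7.64). The gene oac-14 had such a library in 4 groups, WT-des F5 replicate 1 at 45.7 CPM, F1-1DOA replicate 3 at 18.5 CPM, F1-4DOA replicate 3 at 29.7 CPM and set-2 F1-1DOA replicate 1 at 107 CPM. In WT-des F5 replicate 2, oac-1 stood at 28.0 CPM and oac-17 at 4.50 CPM, each above the other 3 libraries. Replicate 1 of 1DOA x 4DOA was high for oac-7 (1.08 CPM) and low for oac-56 (0.901 CPM). The gene oac-20 was high in 1DOA x 1DOA replicate 4 (69.4 CPM) and in set-2 F1-25C replicate 3 (29.2 CPM). Of the remaining libraries, F1-4DOA replicate 4 was low for oac-46 (30.4 CPM, others 79.9 to 88.5) and F1-back replicate 3 was high for oac-49 (3.75 CPM, others 2.75 to 2.90).

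The effect of maternal age differed between cross-progeny and self-progeny by a test of the difference for oac-20 (log2 difference -3.14) and for oac-31 (-3.44), by edgeR's interaction term.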

How the results depend on the processing

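Of the 35 calls of a member in a comparison, 16 held under every alternative run, and none reversed. These were oac-7 and oac-32 in F1-4DOA, oac-15, oac-32 and oac-51 in F1-25C, oac-32, oac-49 and oac-51 in F1-back against F1-25C, oac-32 in set-2 F1-25C against set-2 F1-1DOA, oac-10, oac-12, oac-32 and oac-49 in set-2 F1-4DOA and oac-12 and oac-49 in set-2 F1-25C against wild type, and oac-7 in 1DOA x 4DOA against F1-4DOA. Of 436 alternatives to the 35 calls, 98 lost the call.

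The following counts moved by over 1.5 times, and the cause was not tested. DESeq2 called 1 member in MUT-des against WT-ctrl, 1 in F5 against F3, 2 in set-2 F1-25C against set-2 F1-1DOA, 1 between cross-progeny groups, 3 in 1DOA x 1DOA against F1-1DOA, 2 in the interaction of age and set-2, 2 in that of temperature and set-2 and 5 in that of age and mating. DESeq2 also called more genes over the whole table than edgeR in each of these. In the outcross it was 52 against 28 in MUT-des against WT-ctrl and 408 against 335 in F5 against F3. It was 532 against 455 in set-2 F1-25C against set-2 F1-1DOA and 31 against 10 between cross-progeny groups. In 1DOA x 1DOA against F1-1DOA it was 478 against 356. For the interactions it was 493 against 187 (age and set-2), 558 against 410 (temperature and set-2) and 246 against 89 (age and mating). RLE factors gave 2 in set-2 F1-25C against set-2 F1-1DOA and 2 in 1DOA x 1DOA against F1-1DOA. With no filter the counts were 1 in set-2 F1-1DOA against F1-1DOA, 2 in set-2 F1-25C against set-2 F1-1DOA, 0 in 1DOA x 1DOA against F1-1DOA, 1 in 1DOA x 4DOA against F1-4DOA and 0 for age and mating. With no fold threshold they were 1 in F5 against F3, 4 in set-2 F1-1DOA against F1-1DOA and 6 in set-2 F1-4DOA against set-2 F1-1DOA. With all 22 outcross libraries, 0 members were called by edgeR in the 4 outcross comparisons.

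Correlations of the deviations of same-numbered libraries ran from -0.464 to 0.381 over 46 outcross pairs (mean 0.0293) and from -0.648 to 0.438 over 144 parental pairs (mean -0.00573). Over the 10 pairs of 1 genotype and number at F3 and F5 the mean was 0.141, with 7 pairs over 0.1. As not every pair was over 0.1, the numbers were not taken as pairs. That rule is strict and the labels do not state a pairing, so pairs of F3 with F5 lines are not excluded. The main fit of F5 against F3 ignored any such pairing. The replicate block gave 2 calls in set-2 F1-25C against set-2 F1-1DOA, 0 in 1DOA x 1DOA against F1-1DOA, 1 for temperature and set-2 and 1 for age and mating, and other counts stayed within 1.5 times.

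Leaving out 1 library at a time gave 0 to 1 calls for mutant descendants against controls, 0 for both comparisons with wild-type descendants and 0 to 2 in F5 against F3. Against F1-1DOA it gave 2 to 5 calls for old mothers, 3 to 8 for 25°C and 0 for the return. It gave 3 to 7 in F1-back against F1-25C, 0 to 2, 4 to 11 and 2 to 5 in set-2 F1-1DOA, F1-4DOA and F1-25C against wild type, and 1 to 5 and 1 to 3 in set-2 F1-4DOA and F1-25C against set-2 F1-1DOA. For cross-progeny it gave 0 to 1 between the groups and 0 to 2 and 1 to 4 against F1-1DOA and F1-4DOA. The interactions gave 0 to 8 for age and set-2, 0 to 2 for temperature and set-2 and 0 to 3 for age and mating. The shares of all genes called without 1 library are not given here, so these counts show only how the calls depend on single libraries. Depth limits the low members most, with medians of 6, 7 and 9 counts per parental library for oac-12, oac-51 and oac-7.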
